A study of Mus musculus with 6 samples.

Results

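The replication-dependent histone genes are the clustered genes that supply most of the H1, H2A, H2B, H3 and H4 protein packed onto new DNA in S phase. All genes of the expression table whose symbol began with Hist1h, Hist2h, Hist3h or Hist4h were taken, which gave 66 of 19489 genes: 6 H1, 18 H2A, 18 H2B, 11 H3 and 13 H4 genes. The table held 6 mRNA-seq libraries of mouse embryonic stem cells (ESCs): Con-1, Con-2 and Con-D7 from control (Con) cells, labelled wild type, and OE-1, OE-2 and OE-D7 from Dppa3 overexpressing (OE) cells. Per the study's methods, OE cells carried Dppa3 driven by the ubiquitous CAG promoter, Con cells received the empty vector, and puromycin was used for selection. The methods describe both stable lines from picked colonies and transiently transfected cells, and do not say which were sequenced. All were grown in serum and LIF, the cytokine that keeps mouse ESCs undifferentiated. The strain label differed for every library, running from 129S2/SvPas for Con-1 to 129S7/SvPas for OE-D7, and no source explains the D7 label. The study's methods state in general that its results rest on 3 or more independent experiments per condition. That statement does not name the RNA libraries or describe how their cultures were kept. P-values below therefore measure the spread left between the libraries of each fit once its terms are taken out, and that spread may be technical.

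Most mRNAs end in a poly(A) tail, and replication-dependent histone mRNAs mostly do not. They end instead just after a short RNA hairpin, the histone stem-loop, which the protein Slbp binds and next to which the U7 small nuclear RNP directs the cut. Their genes have no introns in most cases, lie side by side in clusters, and include many near-identical copies that encode the same protein. Their transcripts build up in S phase and are degraded when DNA synthesis stops. Methods that select poly(A) therefore read only a small part of these transcripts, and no source used here says whether poly(A) RNA was selected in this study.

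Of the 66 genes, 54 belonged to the Hist1 cluster on chromosome 13, in 2 blocks of 23 genes (chr13:21715711-22043658) and 31 genes (chr13:23531044-23934913). The Hist2 cluster held 9 genes on chromosome 3 (chr3:96219885-96270192), the Hist3 cluster 2 on chromosome 11 (chr11:58948911-58955192) and Hist4 only Hist4h4 on chromosome 6 (chr6:136803993-136804431). All coordinates are those of RefSeq on GRCm38.p6, and all 66 genes matched by gene number. A histone stem-loop of 16 bases was present in a GENCODE transcript of 45 of the 66 genes. Its absence from the transcripts of the other 21 does not show that these genes lack one, since several of these transcripts were annotated shorter than the gene. Those of Hist1h2ai and Hist1h2an had 393 bases, against RefSeq spans of 448 and 475. The sequences of 5 members are shown because they hold 3 of the 8 forms found and include abundant genes of the H2A and H1 types and the highest H4 gene. The capitals mark the stem-loop, and the small letters are up to 5 transcript bases on either side.
Hist1h2ap (H2A): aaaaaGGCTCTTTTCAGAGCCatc
Hist1h2ao (H2A): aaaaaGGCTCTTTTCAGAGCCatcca
Hist1h1c (H1): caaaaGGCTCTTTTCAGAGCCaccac
Hist1h2bk (H2B): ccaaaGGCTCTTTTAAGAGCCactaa
Hist1h4i (H4): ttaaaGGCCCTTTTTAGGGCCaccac
The form in Hist1h2ap, Hist1h2ao and Hist1h1c was the commonest, with 25 genes of the H1, H2A, H2B and H3 types and no H4 gene. All 12 H4 genes with a stem-loop had other forms, of which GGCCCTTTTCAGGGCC was shared by 7. The annotated transcript of Hist1h2ap ended 3 bases past the stem-loop and that of Hist1h2ao 31 bases past it, whereas that of Hist1h1c ran on for 840 bases. In all, 22 genes had a transcript running over 100 bases past the stem-loop, and 16 had the hexamer that directs polyadenylation within the last 50 bases of a transcript. The hexamer was found there for 12 of the 37 genes whose mean reached 0.5 FPKM and for 4 of the 29 below it. This search depends on where the annotated transcripts end. FPKM scales fragments to transcript length and library size, so that levels can be compared between genes.

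Upstream sequences from RefSeq are given for 3 abundant genes that the comparisons below turn on, the H2A genes Hist1h2ap and Hist1h2ai and the linker histone gene Hist1h1c. Each is the 250 bases before the annotated start, read along the gene's strand, and the capitals mark CCAAT and the H1 box AAACACA on either strand.
Hist1h2ap, chr13:21833476-21833725, minus strand: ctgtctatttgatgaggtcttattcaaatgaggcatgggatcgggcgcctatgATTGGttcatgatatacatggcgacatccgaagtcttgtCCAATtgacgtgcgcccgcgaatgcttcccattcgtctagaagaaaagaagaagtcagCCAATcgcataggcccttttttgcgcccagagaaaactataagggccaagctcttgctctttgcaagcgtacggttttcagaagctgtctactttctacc
Hist1h2ai, chr13:21716162-21716411, plus strand: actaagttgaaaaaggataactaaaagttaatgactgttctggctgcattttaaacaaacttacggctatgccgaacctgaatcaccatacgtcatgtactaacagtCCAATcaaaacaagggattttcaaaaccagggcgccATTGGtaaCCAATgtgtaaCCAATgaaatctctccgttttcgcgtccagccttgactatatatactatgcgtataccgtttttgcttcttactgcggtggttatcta
Hist1h1c, chr13:23738557-23738806, plus strand: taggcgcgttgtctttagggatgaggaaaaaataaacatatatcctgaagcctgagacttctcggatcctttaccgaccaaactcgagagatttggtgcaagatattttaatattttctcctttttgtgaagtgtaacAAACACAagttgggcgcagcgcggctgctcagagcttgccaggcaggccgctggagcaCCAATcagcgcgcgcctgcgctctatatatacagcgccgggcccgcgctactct
Over windows of 300 bases reaching 50 bases past the start, which 61 of the genes had (62 windows), CCAAT was found on either strand in 85.5% of the histone windows and in 37.4% of all 32851 promoter windows. It was in every H1, H2A, H2B and H3 window and in 25% of the H4 windows. TATAAA was in 56.5% of histone windows and 13.6% of all windows. The octamer ATTTGCAT was in 38.9% of H2A and 41.2% of H2B windows, in 0 of the H1, H3 and H4 windows and in 1.74% of all windows. The H1 box was in 5 of 6 H1 windows and in 7.18% of all windows. The upstream window of Hist1h2ao shared an unbroken run of 150 bases with that of Hist1h2ap.

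Estimated counts summed to 17408954 to 18176939 per library. Dppa3, the overexpressed gene, was at 6.09, 3.89 and 26.22 FPKM in Con-1, Con-2 and Con-D7 and at 278.79, 278.82 and 130.96 FPKM in OE-1, OE-2 and OE-D7, higher in every OE library than in any Con library. The 11 ESC markers summed to 5286 and 4702 CPM, a count scaled to the library total, in Con-D7 and OE-D7 and to 6990 to 7513 CPM elsewhere, and none was at 0 in every library. They did not all move alike. Pou5f1 was at 383.78 and 311.64 FPKM in Con-D7 and OE-D7 and at 575.03 to 682.98 FPKM elsewhere. Nanog, at 320.14 and 327.31 FPKM, lay within the 261.23 to 470.91 FPKM of the others, and Dppa5a was higher in both D7 libraries. The D7 libraries also stood apart in markers of other cell types: 9 trophectoderm markers, among them Krt8 and Hand1, summed to 1184 CPM in Con-D7 and 2072 CPM in OE-D7 and to 83.1 to 133 CPM in the other libraries. Likewise 12 fibroblast markers summed to 469 CPM in Con-D7 and 1285 CPM in OE-D7 and to 78 to 150 CPM elsewhere, and 10 primitive endoderm markers to 42.4 and 71 CPM against 17.8 to 30.4 CPM. Single markers did not all follow these sums. The fibroblast marker Thy1 was at 22.95 and 20.97 FPKM in Con-D7 and OE-D7 and at 30.84 to 52.99 FPKM elsewhere. Of the primitive endoderm markers, Sox7 was at 0.32 and 0.43 FPKM against 0.36 to 0.86 FPKM. Amn was at 1.39 and 1.19 FPKM against 1.20 to 2.89 FPKM. The markers of both lists that passed the threshold in the D7 comparison below all rose. In such bulk samples, fewer cells of a type and less RNA per cell cannot be told apart.

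Reads of the histone genes came almost wholly from 3 H2A genes of the first Hist1 block. Hist1h2ap, Hist1h2ao and Hist1h2ai held 93.6% of the histone counts in Con-1 and 81.6% in OE-D7, the highest and lowest shares of the 6 libraries. All 66 genes together gave 676 CPM in Con-1, 496 in Con-2, 457 in Con-D7, 609 in OE-1, 515 in OE-2 and 338 in OE-D7. The Hist1 cluster held 97.3% to 99.3% of the histone counts. The median gene had a mean level of 0.624 FPKM, against 3.89 FPKM over all genes of the table, and 71% of the values were below a count of 10. Of the 66 genes 18 had a mean of at least 1 FPKM, 6 of at least 5 FPKM and 3 of at least 100 FPKM.

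**Figure D1:**
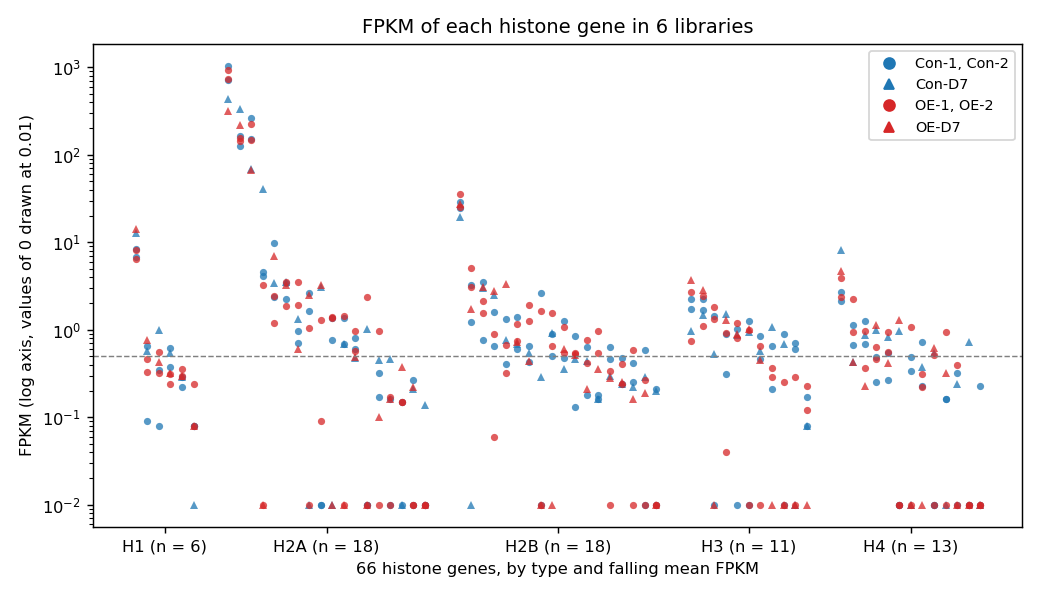
FPKM (log axis) of the 66 histone genes in each of 6 libraries, ordered within each type by falling mean, with Con in blue, OE in red and the D7 libraries as triangles. The dashed line is at 0.5 FPKM, and 3 H2A genes stand above 60 FPKM in every library while 29 genes have a mean below the line.

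The 18 H2A genes were the most uneven type. Hist1h2ap, which encodes a canonical H2A, was at 1035.19 FPKM in Con-1, 720.83 in Con-2, 436.95 in Con-D7, 929.96 in OE-1, 730.43 in OE-2 and 314.08 in OE-D7. Hist1h2ai, another canonical H2A gene, was at 263.05, 151.51, 68.82, 224.24, 149.12 and 67.24 FPKM in the same order. Both were lowest in the 2 D7 libraries, and both were lower in Con-2 and OE-2 than in Con-1 and OE-1. Hist1h2ao, a near copy of Hist1h2ap, was at 162.16, 124.86, 333.55, 143.71, 157.04 and 219.59 FPKM in that order, with the 2 D7 libraries highest. Hist1h2an was at 40.36 FPKM in Con-D7, at 3.22 to 4.52 FPKM in Con-1, Con-2 and OE-1 and at 0 in OE-2 and OE-D7. The other 14 H2A genes had means of 0.0233 to 4.37 FPKM, and Hist3h2a, of the small Hist3 cluster, was at 1.88 to 3.51 FPKM. The testis form Hist1h2aa was at 0.14 FPKM in Con-D7 and at 0 in the other 5 libraries.

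H1 counts came mostly from 1 gene, Hist1h1c, and H2B counts came mostly from Hist1h2bc, to a lesser degree. Hist1h1c, encoding the linker histone H1.2, was at 6.73, 8.30, 12.67, 6.52, 8.26 and 14.30 FPKM in Con-1, Con-2, Con-D7, OE-1, OE-2 and OE-D7. Hist1h2bc, an H2B gene, was at 24.34, 28.83, 19.30, 25.27, 35.31 and 27.41 FPKM in that order. The Hist1h1c values of the D7 libraries lay above the other 4, while Hist1h2bc was lowest in Con-D7 and highest in OE-2. The other 5 H1 genes reached at most 1.00 FPKM, and the testis form Hist1h1t at most 0.24 FPKM. Among the other H2B genes Hist1h2br had a mean of 2.4 FPKM, Hist3h2ba 2.32 FPKM and Hist1h2bq 1.4 FPKM, and the testis form Hist1h2ba was at 0.18 to 0.77 FPKM.

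H3 and H4 genes had the fewest reads. The highest H3 genes were Hist2h3c2 at 0.74 to 3.66 FPKM and Hist1h3g at 1.10 to 2.83 FPKM, followed by Hist1h3b and Hist1h3d with means of 0.858 and 0.833 FPKM. The highest H4 gene was Hist1h4i, at 2.70, 2.15, 8.17, 2.36, 3.95 and 4.75 FPKM in Con-1, Con-2, Con-D7, OE-1, OE-2 and OE-D7, and the next, Hist1h4d, had a mean of 0.973 FPKM. Hist1h4k and Hist1h4h had means of 0.727 and 0.658 FPKM, and Hist4h4, the isolated H4 gene, was at 0.27 to 0.95 FPKM. All 11 H3 genes summed to 53 to 92 counts per library and all 13 H4 genes to 41 to 95. H2A summed to 4960 to 11634 counts per library, H2B to 420 to 670 and H1 to 98 to 199, so that the measured H2A, H2B, H3 and H4 transcripts were not in like amounts, although the nucleosome holds these proteins in equal numbers.

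**Figure D2:**
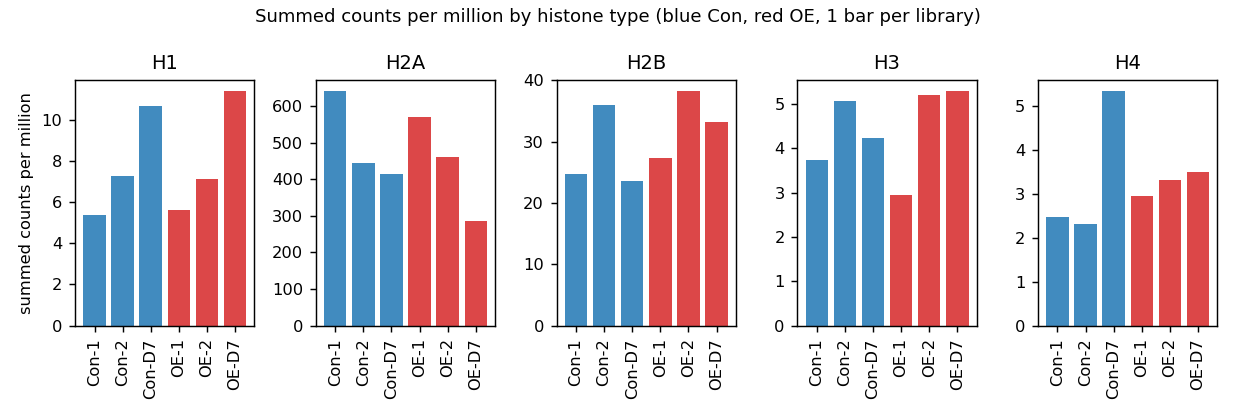
Summed CPM of the genes of each histone type, 1 bar per library, with Con in blue and OE in red and its own axis for each type. H2A lay between 285 and 640 CPM, H2B between 23.6 and 38.2 CPM, H1 between 5.39 and 11.4 CPM, and H3 and H4 between 2.31 and 5.34 CPM.

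Copies limited what could be read for single genes. Taking the annotated transcripts in windows of 50 bases, 31 of the 66 genes shared over 50% of their windows with another gene, and the median share was 73% in H2A, 60.4% in H3, 46.9% in H2B, 39.5% in H4 and 1.12% in H1. Hist1h2ap and Hist1h2ao shared 93.1% and 93.5% of their windows with each other, and Hist1h2bq shared 97.3% of its windows with Hist1h2br. All windows of Hist2h2aa2 were shared with another annotated gene. The authors' estimates divided such reads among copies, so that a level given for 1 copy is uncertain. Sums over copies are given for some of the genes concerned, with no test. Hist1h2ai shared 90.1%, Hist1h2bk 74.2% and Hist1h2ad 67.1% of their windows with other genes, so their single levels are uncertain too. Hist1h1c shared 8.54%, Hist1h2bc 30.1% and Hist2h2be 0% of their windows.

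Replicate 2 was compared with replicate 1 over Con-1, Con-2, OE-1 and OE-2 with genotype as a term, which asks how far the histone genes varied between libraries that carry the same label. With replicate and genotype both as terms, these 4 libraries leave 1 residual degree of freedom. The abundant H2A genes Hist1h2ap and Hist1h2ai fell, and 3 H2B genes and 1 H2A gene with few counts rose. Hist1h2ap fell by 0.53 on the log2 scale (SE 0.07, adjusted p = 1.82e-05 by edgeR's quasi-likelihood test with Benjamini-Hochberg adjustment over all genes tested) and Hist1h2ai fell by 0.79 (SE 0.09, adjusted p = 2.71e-06 in the same edgeR fit). Of 35 histone genes with a mean of at least 0.5 FPKM over these 4 libraries, 4 were called higher (11.4%) and 2 lower (5.71%), against 26.0% and 25.4% of the 13494 genes tested. In this fit the called histone genes were thus a smaller share than among all genes in both directions. The median log2 fold change was 0.25 for the 35 histone genes and 0.02 for all genes.

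Those called higher were Hist2h2be, Hist1h2br, Hist1h2bk and Hist1h2ad. Hist2h2be, an H2B gene of the Hist2 cluster with the polyadenylation hexamer near the end of its transcript, had 23.29 and 26.28 counts in Con-1 and OE-1 and 60.09 and 50.74 in Con-2 and OE-2. It rose by 1.11 on the log2 scale (SE 0.32, adjusted p = 0.00723, edgeR). Hist1h2br, an H2B gene, had 47.59 and 58.76 counts in Con-1 and OE-1 and 109.50 and 106.38 in Con-2 and OE-2, and rose by 0.95 (SE 0.24, adjusted p = 0.00309, edgeR). In each of these 2 genes both replicate 2 libraries lay above both replicate 1 libraries. Together with its copy Hist1h2bq, Hist1h2br reached 3.3 and 3.65 CPM in Con-1 and OE-1 and 6.48 and 6.19 CPM in Con-2 and OE-2, a ratio of 1.82, or 1.34 for the summed FPKM. Hist1h2bk, an H2B gene, was at 0 in Con-1 and OE-1 and had 22.09 and 13.44 counts in Con-2 and OE-2, at least 6.06-fold higher when the zeros are set to 3 counts per library (adjusted p = 0.000218, edgeR). Hist1h2ad, an H2A gene, had 21.24 counts in OE-2 and 0 in the other 3 libraries (adjusted p = 0.00238, edgeR), so that its call rested on 1 library. Hist1h2bk and Hist1h2ad, 2 of the 4 called higher, reached the filter of 0.5 FPKM only through replicate 2 libraries, in which they were high. They shared 74.2% and 67.1% of their windows with other genes. No sum over their copies was made, and the part of read division among copies in these 2 calls was not tested.

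The H2A sum moved the same way in both genotypes. It fell from 640 CPM in Con-1 to 445 CPM in Con-2, a ratio of 0.696, and from 570 CPM in OE-1 to 461 CPM in OE-2, a ratio of 0.81. Summed H2B went the other way, with ratios of 1.46 in Con and 1.39 in OE. H1 had ratios of 1.35 and 1.27, H3 of 1.35 and 1.76 and H4 of 0.931 and 1.12 in Con and OE. Without Hist1h2ap, Hist1h2ao and Hist1h2ai, the other 63 genes summed to 43.3 and 46.1 CPM in Con-1 and OE-1 and to 62 and 61.3 CPM in Con-2 and OE-2. The 2 falls were also called with DESeq2, which called 0 of the rises. Dropping the genotype term alone lost Hist1h2ad (adjusted p = 0.0692, edgeR), and without that term leaving out Con-1 also lost Hist1h2br (adjusted p = 0.0618, edgeR) and leaving out Con-1 or Con-2 lost Hist2h2be (adjusted p = 0.0724 and 0.0721, edgeR).

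Genes that act in S phase or on histones and their mRNA were read in the same comparison, and Slbp was in 2 of these lists. The counts below stand against 26.0% of all genes called higher and 25.4% called lower. Of 34 S phase genes, the DNA replication machinery and its regulators, 22 fell and 1 rose, with a median log2 fold change of -0.30. Pcna, the sliding clamp of DNA polymerase, fell by 0.45 (SE 0.07, adjusted p = 6.24e-05, edgeR) and Mcm7, a subunit of the replicative helicase, fell by 0.39 (SE 0.07, adjusted p = 0.000168, edgeR). Of 20 genes for making and degrading histone mRNA 12 fell and 4 rose (median -0.21), and Slbp, which binds the stem-loop, fell by 0.30 (SE 0.08, adjusted p = 0.00574, edgeR). Of 16 histone chaperones 10 fell and 0 rose (median -0.29), among them Nasp, which fell by 0.37 (SE 0.07, adjusted p = 0.000249, edgeR). Of 11 replication-independent histone genes 4 rose and 2 fell (median 0.02): H2afz, encoding H2A.Z, fell by 0.60 (SE 0.07, adjusted p = 4.47e-06, edgeR) and H1f0, encoding the linker histone H1.0, rose by 1.53 (SE 0.15, adjusted p = 7.99e-07, edgeR). Of 20 genes of G2 and M phase 6 fell and 3 rose (median -0.10), a share of falls near that of all genes. Markers of other cell types moved here too, with 4 of 7 fibroblast markers higher and 1 lower, 3 of 6 trophectoderm and 2 of 5 primitive endoderm markers higher and 0 lower, and 2 of 11 ESC markers higher and 6 lower, and their part in the histone values was not tested.

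**Figure D3:**
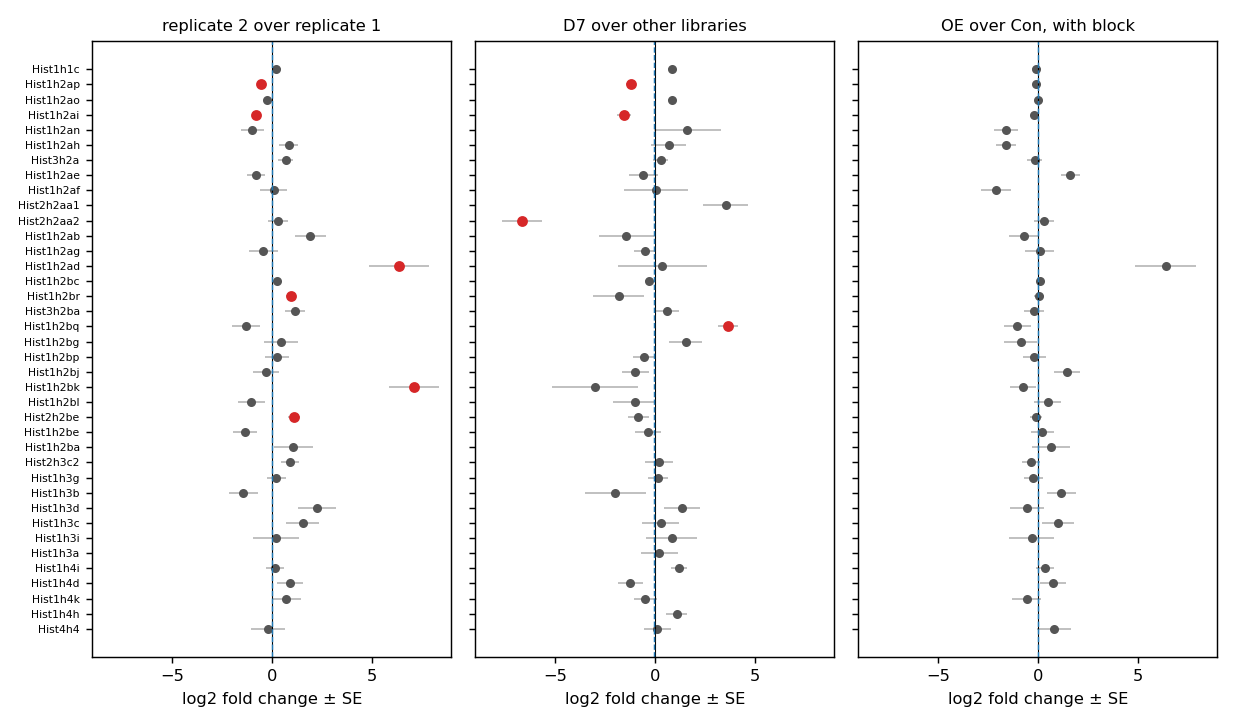
Log2 fold change with its SE of the histone genes tested, ordered by type and level, for replicate 2 against replicate 1, for the D7 libraries against the others, and for OE against Con with the pair as a block. Red points passed an adjusted p of 0.05 in edgeR, the blue dashed line is the median of all genes tested, and 6, 4 and 0 genes passed.

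The D7 libraries were compared with the other 4 with genotype as a term, over genes with a mean of at least 0.5 FPKM in all 6. Hist1h2ap fell by 1.22 on the log2 scale (SE 0.24, adjusted p = 0.0376, edgeR) and Hist1h2ai fell by 1.55 (SE 0.33, adjusted p = 0.0453, edgeR), while the H2B gene Hist1h2bq rose by 3.65 (SE 0.50, adjusted p = 0.0153, edgeR). The H2A gene Hist2h2aa2 was also called lower (adjusted p = 0.0282, edgeR). Of 37 histone genes, 1 was called higher (2.7%) and 3 lower (8.11%), against 6.77% and 3.06% of the 13809 genes tested. The median log2 fold change was 0.12 for the 37 histone genes and -0.03 for all genes. Hist1h2ao had a log2 fold change of 0.88 (SE 0.20, adjusted p = 0.0519, edgeR), Hist1h1c of 0.85 (SE 0.21, adjusted p = 0.0636, edgeR) and Hist1h2bc of -0.30 (SE 0.19, adjusted p = 0.352, edgeR), and these did not pass. Hist1h2ao and Hist1h1c did pass with DESeq2 (adjusted p = 0.00275 and 0.0307), with limma (adjusted p = 0.0403 and 0.0387) and in edgeR with no genotype term (adjusted p = 0.0253 and 0.0288), while limma lost Hist1h2bq (log2 fold change 1.41, adjusted p = 0.112). Leaving out Con-D7 or OE-D7 left 1 D7 library, assumed to vary like the other groups, and lost all 4 calls, with log2 fold changes still of -1.38 and -1.03 for Hist1h2ap, -1.46 and -1.62 for Hist1h2ai and 4.01 and 3.36 for Hist1h2bq. The calls of Hist1h2ap, Hist1h2ai and Hist2h2aa2 were also lost without OE-1 or without OE-2, with adjusted p between 0.0682 and 0.106 in edgeR.

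In 3 sets of copies the D7 libraries differed from the others in how counts were divided. Hist1h2ao took 16.3%, 17.7%, 16.1% and 21.1% of the counts shared by Hist1h2ap and Hist1h2ao in Con-1, Con-2, OE-1 and OE-2, and 48.6% and 46.5% in Con-D7 and OE-D7. As a sum, Hist1h2ap and Hist1h2ao were at 523, 371, 469 and 391 CPM in Con-1, Con-2, OE-1 and OE-2 and at 360 and 248 CPM in Con-D7 and OE-D7. The sum was thus lower in the D7 libraries in both genotypes, with ratios to the mean of libraries 1 and 2 of 0.806 in Con and 0.577 in OE, but the smaller drop left Con-D7 close to Con-2. With Hist1h2ai and Hist1h2an added, the ratios were 0.757 and 0.543.

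Hist1h2bq had 12.41, 5.68, 6.92 and 2.06 counts in Con-1, Con-2, OE-1 and OE-2, and 93.50 and 72.26 in Con-D7 and OE-D7. Its copy Hist1h2br had 47.59, 109.50, 58.76 and 106.38 counts in the former 4 and 0.37 and 64.34 in the D7 libraries. The sum of both was 3.3 to 6.48 CPM in the former 4 libraries, 5.28 CPM in Con-D7 and 7.85 CPM in OE-D7, so that Con-D7 lay within the range of the others and OE-D7 above it. On the FPKM scale the order differed, since the sum was 2.49 FPKM in Con-D7, below the 2.82 to 5.18 FPKM of the former 4, and 4.48 FPKM in OE-D7, within their range. The ratio of the D7 libraries to the others was 1.34 in CPM and 0.879 in FPKM, and no direction is drawn for this sum. Hist2h2aa2 was at 0 in both D7 libraries and had 7.98, 13.83, 13.99 and 13.99 counts in Con-1, Con-2, OE-1 and OE-2, at least 4.1-fold lower in the D7 libraries at 3 counts per library. Hist2h2aa2 reached the filter of 0.5 FPKM through the former 4 libraries alone. Its copy Hist2h2aa1 had 0, 0, 0.85 and 11.99 counts in those 4 libraries and 28.90 and 30.26 in Con-D7 and OE-D7. Both together gave 0.439, 0.778, 0.825 and 1.48 CPM in the former 4 and 1.62 and 1.74 CPM in the D7 libraries, the opposite direction to the call of Hist2h2aa2 alone. A further annotated gene, Gm20634, shared 100% of the windows of Hist2h2aa2 and 89.4% of those of Hist2h2aa1 and was not part of this sum. The count columns of the D7 libraries are headed as averages in the deposited table, unlike the others, and the part of that in the division of counts was not tested.

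**Figure D4:**
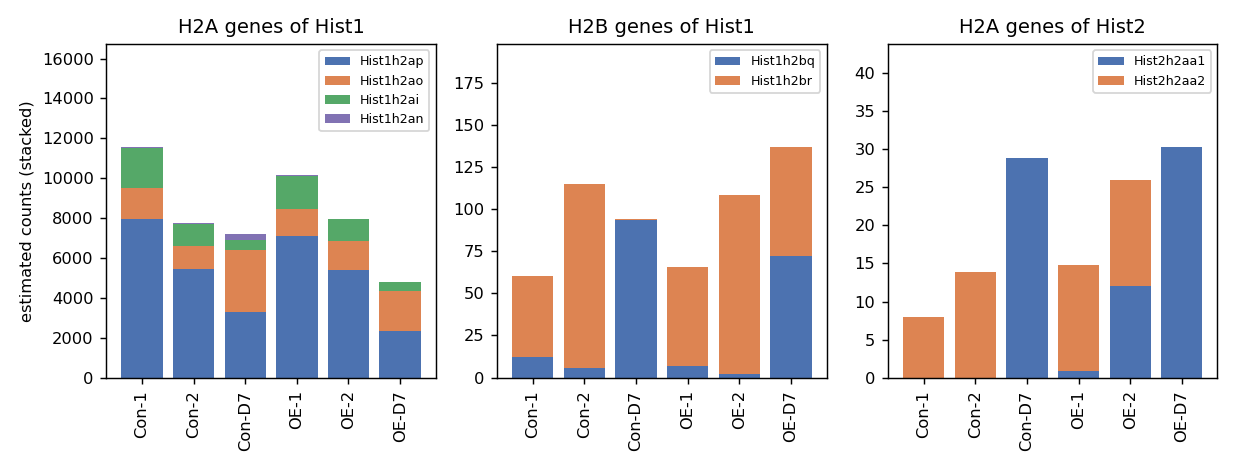
Estimated counts of near-identical copies, stacked within each library, for 4 H2A genes of Hist1, 2 H2B genes of Hist1 and 2 H2A genes of Hist2. In the D7 libraries Hist1h2ao, Hist1h2bq and Hist2h2aa1 take a larger part of each stack than in the other 4 libraries.

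By type, the H2A sum was lower in the D7 libraries in both genotypes, with ratios to the mean of libraries 1 and 2 of 0.761 in Con and 0.553 in OE. The H1 sum was higher, with ratios of 1.69 and 1.79. H2B had ratios of 0.778 and 1.01, H3 of 0.958 and 1.3, and H4 of 2.23 and 1.12. The H2A sum of Con-D7, at 413 CPM, was below that of Con-2 at 445 CPM by less than Con-1 and Con-2 differed. The genes that act with the histones gave 2 falls and 0 rises among 34 S phase genes (median log2 fold change -0.40), with Lig1, the ligase that joins Okazaki fragments, falling by 0.77 (SE 0.11, adjusted p = 0.0173, edgeR) and Mcm4, a helicase subunit, by 0.58 (SE 0.12, adjusted p = 0.0435, edgeR). Among 11 replication-independent histone genes H2afy2, encoding macroH2A2, fell by 1.05 (SE 0.15, adjusted p = 0.0175, edgeR), and H2afz had a log2 fold change of -1.02 (SE 0.25, adjusted p = 0.0628, edgeR). None of the 20 genes for histone mRNA processing, the 16 chaperones and the 20 G2 and M phase genes passed. The markers given above moved with this comparison, since 6 of 8 trophectoderm, 5 of 10 fibroblast and 2 of 5 primitive endoderm markers tested rose and 4 of 11 ESC markers fell (median -0.72), and their part in the histone values was not tested.

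OE against Con is the comparison the study was built for, and it was first made over libraries 1 and 2. The D7 pair, titled as a further replicate of each genotype, was kept apart here because its label is unexplained. No histone gene was called: 0 of 35 higher and 0 of 35 lower, against 0% of the 13494 genes in each direction. Not even Dppa3 passed in this fit, so its lack of histone calls does not show a lack of change. The unadjusted p was below 0.05 for 1 histone gene in the higher direction, Hist1h2ae, and for 0 in the lower, against 0.43% and 0.0296% of all genes, and DESeq2 and limma also called 0. Same-numbered Con and OE libraries deviated together from means that included the D7 library, which alone does not show pairing. The pair was also fitted as a block, where 0.763% of all genes were called higher and 0.126% lower and still 0 of the 35 histone genes. In that fit the unadjusted p was below 0.05 for 3 histone genes higher in OE and 3 lower in OE, against 4.32% and 3.63% of all genes, and limma on log2(FPKM + 0.5) with the block called Hist1h2ae higher. The median log2 fold change was -0.13 over the histone genes and -0.01 over all genes without the block, and -0.10 and 0.00 with it.

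The abundant genes had the smallest SEs of the histone genes in the fit with the block, which leaves 1 residual degree of freedom. Hist1h2ap had a log2 fold change of -0.11 (SE 0.07, adjusted p = 0.774, edgeR), Hist1h2ao of 0.03 (SE 0.11, adjusted p = 0.975, edgeR) and Hist1h2ai of -0.17 (SE 0.09, adjusted p = 0.668, edgeR). Hist1h2bc had 0.13 (SE 0.13, adjusted p = 0.899, edgeR) and Hist1h1c -0.07 (SE 0.22, adjusted p = 0.972, edgeR). Without the block the corresponding SEs were 0.28, 0.21, 0.40, 0.23 and 0.30, and each difference was smaller than its SE. Hist1h2ad had the largest log2 fold change with the block and was closest to the threshold (adjusted p = 0.0628, edgeR), and it was detected in 1 of the 4 libraries.

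With the D7 libraries included and their label added to the model, 0 of 37 histone genes were called, as for the 13809 genes in all, with a median log2 fold change of 0.01 for the histone genes and -0.01 for all genes. With the block 0 histone genes were called, against 0% higher and 0.00724% lower of all genes. Neither fit called Dppa3 higher, so the lack of histone calls does not show a lack of change. The unadjusted p was under 0.05 for 0 histone genes without the block and for 2 of 37 with it, Hist1h2an and Hist1h2ap, both lower, against 4.15% of all genes lower with the block. DESeq2 and limma called 0 over the 6 libraries.

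Within single pairs the histone genes scattered in both directions more than other genes did. Past 1.5-fold, 8 of 37 were higher and 7 lower in OE-1 over Con-1 (21.6% and 18.9%), against 5.00% and 1.72% of all 13809 genes. In OE-2 over Con-2, 7 were higher and 9 lower (18.9% and 24.3%), against 3.88% and 2.25%. In OE-D7 over Con-D7, 8 were higher and 11 lower (21.6% and 29.7%), against 6.09% and 3.58%. The median log2 ratios were nonetheless 0.02, -0.02 and 0.00 for the histone genes. The scatter was widest in genes with few counts. Hist1h2ao, at 1165 to 3114 counts, was the one gene with at least 20 counts in every library past 1.5-fold, lower in the D7 pair. The 5 genes with at least 20 counts in every library, Hist1h2ap, Hist1h2ao, Hist1h2ai, Hist1h2bc and Hist1h1c, had log2 ratios between -0.29 and -0.02 in pair 1, between -0.07 and 0.29 in pair 2 and between -0.63 and 0.47 in the D7 pair. The other 32 ranged from -3.57 to 2.32, from -4.15 to 3.48 and from -7.25 to 5.05.

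**Figure D5:**
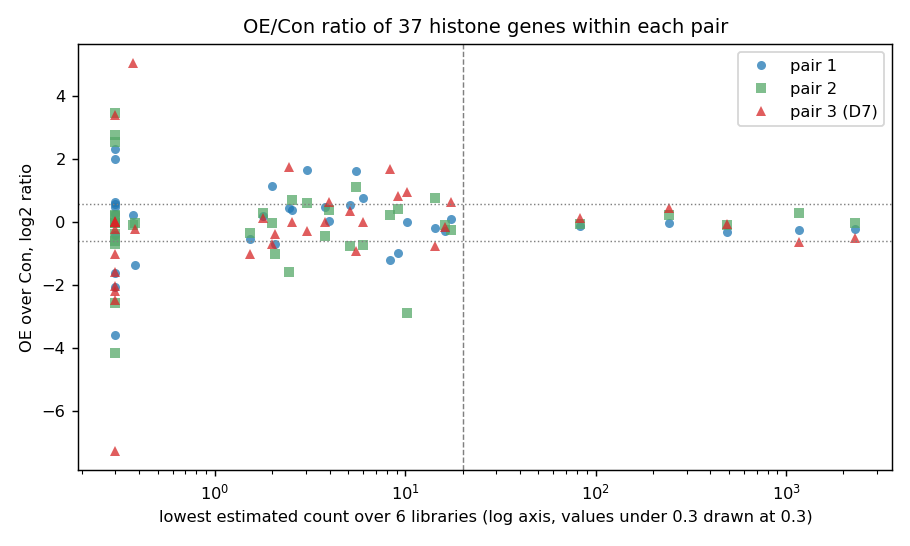
OE over Con log2 ratio of 37 histone genes within each pair, against the lowest estimated count of the gene over 6 libraries (log axis). Dotted lines mark 1.5-fold and the dashed line 20 counts, and right of it the 5 genes lie between -0.63 and 0.47.

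The D7 pair differed from the other pairs in the H2A sum. OE over Con was 0.89 in pair 1, 1.04 in pair 2 and 0.69 in the D7 pair for H2A, and 0.9, 1.04 and 0.741 for all 66 genes. Hist1h2ap was at 436.95 FPKM in Con-D7 and 314.08 in OE-D7, and Hist1h2ao at 333.55 and 219.59. In the interaction test, which asks whether OE acted differently in the D7 libraries, 0 of 37 histone genes were called, against 0% of all genes, and the unadjusted p was under 0.05 for 2 higher and 1 lower, against 0.34% and 0.159% of all genes. With no gene of the table called, this absence does not show that OE acted alike in all pairs. With the block, which leaves 1 residual degree of freedom from pairs 1 and 2, so that the lone D7 pair is assumed to vary like them, 2 histone genes were called higher and 2 lower (Hist1h2br, Hist1h2af, Hist1h2an and Hist1h2ad), against 0.934% and 0.507% of all genes. Neither Hist1h2ap nor Hist1h2ao passed there, with differences of -0.38 (SE 0.13, adjusted p = 0.184, edgeR) and -0.66 (SE 0.17, adjusted p = 0.0579, edgeR) on the log2 scale. Each of the 4 genes called had 0 or under 1 count in at least 1 library and shared 67.1% to 88.7% of its windows with another gene.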

How the data were processed

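Total RNA was extracted with TRIzol, and the libraries, which the study calls mRNA-seq, were sequenced on BGISEQ-500. Per the study's methods, the authors used Bowtie2, mm10 and RSEM, and the deposited table holds unnormalized expected counts and FPKM for each gene. The processing notes list HISAT with GRCm38.p6. Versions, read length and poly(A) selection are not given in the sources used here. Rounded estimated counts were tested with edgeR 4.0.16 (R 4.3.3, TMM, quasi-likelihood F test) on genes whose mean reached 0.5 FPKM, with an adjusted p under 0.05 as threshold. SEs are the log2 fold change over the root of F. Ratios within pairs used log2 CPM with a prior count of 2 and a fold of 1.5. DESeq2 1.42.0 and limma 3.58.1 on log2(FPKM + 0.5), other filters, RLE scaling and leaving out each library were alternatives. Fits were tested on simulated data. Deviations of same-numbered Con and OE libraries from their genotype's mean correlated at 0.881, 0.756 and 0.889 over 12565 genes, which was taken as pairing. Each mean included the D7 library, so a D7 difference shared by both genotypes also enters the deviations of libraries 1 and 2. Correlations between libraries of unlike number are not given, so these values alone do not show pairing. For OE against Con, edgeR's common coefficient of variation was 0.283, and 0.0804 with the block. Members and lists were chosen with earlier results of these data known. Genes named were the 4 highest of each type, set testis and isolated forms, the 3 largest called changes each way in a comparison, and up to 3 called genes of each other list. Hist1h2ae and Hist2h2aa1 were named after their values were seen. Of 22 listed genes for histone mRNA processing 20 were in the table, of 15 replication-independent histone genes 13, and a list of small RNAs without poly(A) tails matched 0 genes. Stem-loops were sought in GENCODE vM21 transcripts.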

Additional observations from a re-analysis of the deposited data

Results flagged for a closer look

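In 4 genes the OE effect fitted for the D7 pair was past the threshold against that of the other pairs when the pair was a block, with log2 differences of -9.67 for Hist1h2an (adjusted p = 0.00421, edgeR), 8.95 for Hist1h2br (adjusted p = 0.000164, edgeR), 9.37 for Hist1h2af (adjusted p = 0.0188, edgeR) and -12.59 for Hist1h2ad (adjusted p = 0.0174, edgeR). There is 1 D7 pair, and the spread comes from the other 2 pairs alone, with 1 residual degree of freedom. Without the block none of the 4 passed. These fitted values rest on libraries at or near 0 and are no measure of size: Hist1h2an had 300.02 counts in Con-D7 and 0 in OE-D7, Hist1h2br 0.37 and 64.34, Hist1h2af 0 and 19.34, and Hist1h2ad 9.18 and 0.

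Hist1h1c was higher in OE in the D7 pair (log2 ratio 0.14) and lower in pairs 1 and 2 (-0.11 and -0.05), and its difference in the test with the block was 0.22 (SE 0.35, adjusted p = 0.902, edgeR). The H4 sum was lower in OE in the D7 pair (log2 ratio -0.61) and higher in pairs 1 and 2 (0.25 and 0.52), a difference that was not tested and rests on 41 to 95 counts per library.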

How the results depend on the processing

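The fit with the replicate block changed no histone call of OE against Con over 4 or 6 libraries, and moved the median over 4 libraries from -0.13 to -0.10. With the block, the difference in OE effect gave 2 genes higher and 2 lower, and limma with the block, chosen after seeing the data, gave 1 gene higher in OE. For the alternatives that follow, and with each library left out, the share of all genes called is not given. These histone counts therefore cannot be set against it. For replicate 2 against 1, DESeq2 gave 0 genes higher, limma 14 higher and 7 lower, and a mean FPKM of at least 2 gave 1 higher with a median of 0.22. For D7, DESeq2 gave 4 genes higher, limma 3 without Hist1h2bq, no genotype term 3, pair 1 alone 9 and pair 2 alone 6 with 5 lower. A mean FPKM of at least 2 gave medians of 0.49 for D7, -0.09 for OE over 4 libraries and -0.14 over 6, and left 12 genes in the pair ratios, with 1 higher and 1 lower in pair 1, 1 and 3 in pair 2 and 3 and 3 in pair 3. RLE scaling moved no count of calls, and FPKM sums moved no ratio of all 66 genes beyond its spread, but turned that of Hist1h2bq with Hist1h2br, D7 over the others, from 1.34 to 0.879.

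With each library left out, OE medians ranged from -0.01 to 0.20 over 4 libraries and from -0.14 to 0.13 over 6. For replicate 2 against 1, with no genotype term (chosen after seeing the data), the median ranged from 0.02 to 0.39 (0.27 without Con-1), genes called higher from 3 to 6 and lower from 2 to 4, and Hist1h2an from -7.81 to 0.25. For D7, the median ranged from -0.19 to 0.07, genes called higher from 0 to 2 and lower from 0 to 3, and Hist1h2an from -6.60 to 3.21. Log2 fold changes of OE over 4 libraries ranged from -0.58 to 0.32 for Hist1h2ai, -0.40 to 0.22 for Hist1h2ap, -0.20 to 0.28 for Hist1h2ao, -0.21 to 0.05 for Hist1h1c and -0.08 to 0.32 for Hist1h2bc. The cause of these shifts was not tested, and few counts limit all but 5 genes.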
